A study of Homo sapiens with 48 samples.

Results

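In H-929, a human multiple myeloma line, 29 genes had no read in any of the 3 control libraries and at least 10 reads in each of the 3 libraries from carfilzomib-treated cells. They were chosen by that rule alone, among the rows of the count matrix whose Ensembl identifier stands on 1 row only. The matrix has 33892 rows, 29089 of them with such an identifier, and 7410 of these were at 0 in all 3 H-929 control libraries, so the 29 genes are 0.391% of the silent rows. The choice used the H-929 counts themselves, so those counts are given as a description with no test, and the tests are those of the other 7 lines.

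Carfilzomib is an irreversible inhibitor of the proteasome, the protease complex that degrades ubiquitin-tagged proteins. Cells were treated for 24 h with carfilzomib, dosed in each line to the IC50 for proteasome activity, or with the solvent DMSO, and RNA of 3 biological replicates per group was sequenced as stranded total RNA. The lines are RKO and DLD-1 (colon), H-23 and H-1299 (lung), PANC-1 and CAPAN-2 (pancreas) and the myeloma lines H-929 and RPMI, giving 16 groups and 48 libraries, with no genetic change named in the labels. Carfilzomib concentrations were not used here. Each line is a single established culture, so the replicates carry the spread between cultures of that line and not between tumours.

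When the proteasome is blocked, unfolded proteins accumulate and heat shock factor 1 switches on genes of the HSP70, HSP90 and small heat shock protein families. Myeloma cells, which make and secrete large amounts of immunoglobulin, are known for their sensitivity to proteasome inhibitors, and these drugs are used to treat the disease. A gene with no reads is not shown to be off, since a count of 0 only limits how much RNA of it was in the library. In RNA from a whole culture, a large gain in few cells and a small gain in all cells cannot be told apart.

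The H-929 libraries held 14.64 to 18.86 M (mega) counts after DMSO and 9.116 to 9.928 M after carfilzomib, so the libraries with reads of the 29 genes were the shallower ones. Over all lines, totals ran from 9.116 to 64.37 M. The plasma cell markers fixed for the label were all detected in H-929, with a summed level of 12152 to 12680 CPM after DMSO and 6433 to 7075 after carfilzomib. CPM of these marker sums are plain counts per M library counts. All other CPM are counts per M library counts after TMM scaling, a factor that adjusts for composition. The 9 epithelial markers measured, KRT19 at 0 in all DMSO libraries and EPCAM at 0 in all carfilzomib libraries, summed to 43.4 to 55.4 and 98.2 to 104 CPM. The 8 fibroblast markers summed to 0.852 to 1.502 CPM after DMSO, with LUM and POSTN at 0, and to 8.89 to 11.3 after carfilzomib. T cell markers summed to 18.5 to 21.8 and 14.3 to 20.3 CPM, and monocyte markers to 2.55 to 4.03 and 6.98 to 7.76. The part of these shifts in the gains of the 29 genes was not tested.

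The set holds 17 protein-coding genes, 7 long noncoding RNAs, 4 pseudogenes and 1 short RNA pseudogene. Protein-coding genes were 58.6% of the 29, 27.1% of all silent rows and 61.3% of all rows with a single identifier. The median exon length was 2025 bp for the 29 genes, 803 bp for the rows silent after DMSO and 366 bp for the rows silent in all 6 H-929 libraries. The part of transcript length in which rows reached 10 reads was not tested.

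HSPA7 had the highest counts, with 72, 75 and 103 reads in carfilzomib replicates 1, 2 and 3. TMEM35A followed with 58, 75 and 39, CUBNP1 with 45, 58 and 39, and GPR61 with 16, 65 and 43. The remaining 25 genes had between 10 and 53 reads per library. Against a floor of 3 counts over the 3 DMSO libraries, the carfilzomib level was at least 128-fold higher for HSPA7 and at least 15.4-fold higher for MUSK, the gene with the fewest reads, and the median of these lower bounds was 26.1. Such bounds cover counting error only, since the reads carry no molecular identifiers known here. The rule, 0 reads after DMSO and at least 10 in each carfilzomib library, itself makes them large, and MUSK stands at its minimum. Their size is thus no result about these genes.

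**Figure D1:**
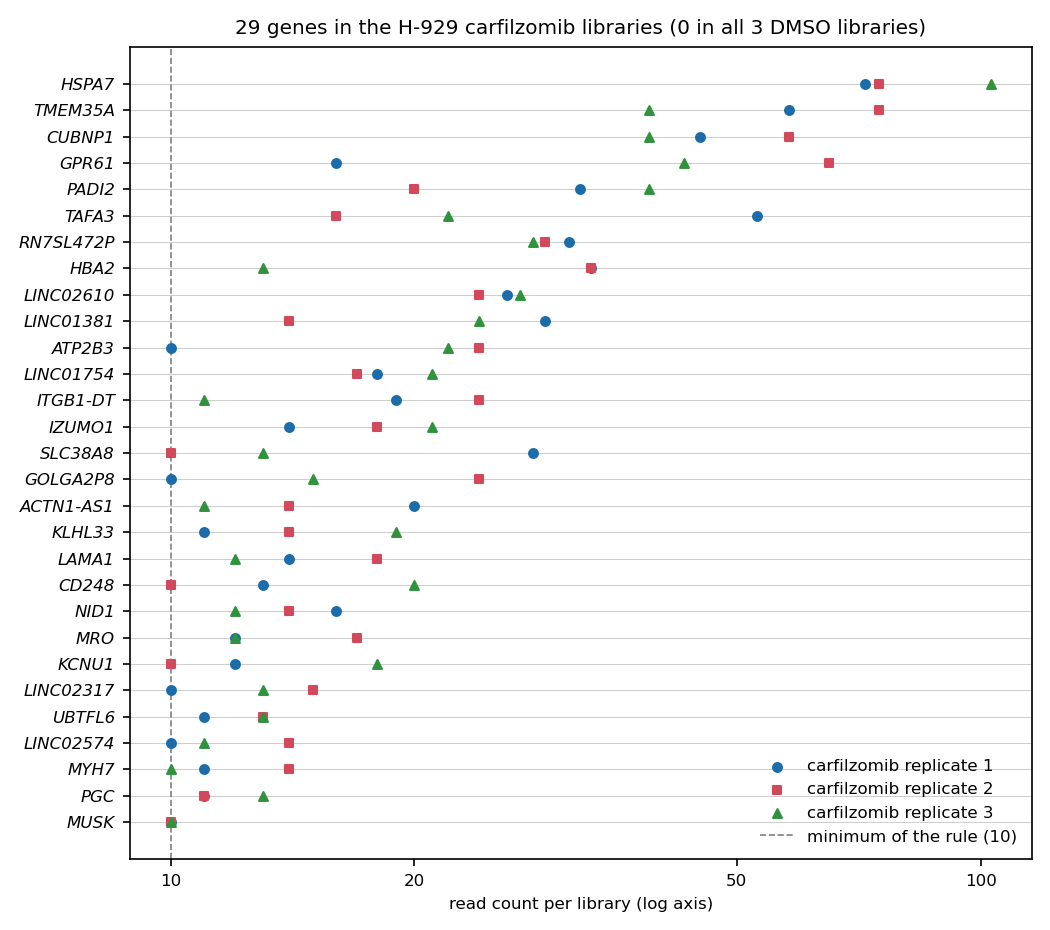
Reads per library of the 29 genes in the 3 H-929 carfilzomib replicates, on a log axis, with 1 marker per replicate and the minimum of 10 as a dashed line. HSPA7 lies at 72 to 103 reads, MUSK at 10 in each replicate, and GPR61 and TAFA3 spread most between replicates.

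The minimum of 10 cut through a continuous range. Just inside it, 9 genes had a lowest count of exactly 10: ATP2B3, SLC38A8, GOLGA2P8, CD248, KCNU1, LINC02317, LINC02574, MYH7 and MUSK. Just outside, 4 rows had a lowest count of 9: RAB27B, SEPTIN12, MIR6843 and UROC1. Of the silent rows, 678 had at least 1 read in each carfilzomib library, 235 at least 3, 106 at least 5, 29 at least 10, 6 at least 20 and 1, HSPA7, at least 50. The 29 genes held 7.95% to 9.23% of all reads that fell on silent rows in a carfilzomib library.

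HSPA7 (ENSG00000225217, chromosome 1, 161606291 to 161608217, plus strand, GRCh38) is annotated as an unprocessed pseudogene of the HSP70 family and is a near-copy of HSPA6, which encodes a strictly inducible HSP70 chaperone. Aligned over 1926 positions, the HSPA7 transcript differed from HSPA6 at 27, and the longest identical run was 310 bases. A stretch of 120 bases that holds 8 of the differences is shown from both transcripts, with the differing bases in capitals. It covers positions 424 to 543 of the HSPA7 transcript and 543 to 662 of the HSPA6 transcript, within the HSPA6 coding sequence, which runs from 120 to 2048.
HSPA7: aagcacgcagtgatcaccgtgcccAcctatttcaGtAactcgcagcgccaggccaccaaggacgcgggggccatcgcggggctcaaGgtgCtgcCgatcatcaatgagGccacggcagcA
HSPA6: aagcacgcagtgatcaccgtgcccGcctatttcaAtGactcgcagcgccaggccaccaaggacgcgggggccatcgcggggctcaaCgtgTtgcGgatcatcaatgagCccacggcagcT
Reads from the long identical runs fit both genes, so the split of reads between them is uncertain.

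HSPA6 itself was not silent in H-929. It had 47, 29 and 21 reads after DMSO and 4255, 3754 and 4419 after carfilzomib. The summed HSPA7 counts were 2.01% of the HSPA6 counts in the H-929 carfilzomib libraries. In the other lines that share after carfilzomib was 1.27% in CAPAN-2, 0.670% in PANC-1, 0.664% in RPMI, 0.749% in DLD-1, 0.513% in H-1299 and 0.0435% in H-23, where HSPA7 had 1 read beside 2299 of HSPA6. In RKO it had 1 read beside 10, and after DMSO in PANC-1 it had 4 beside 74. The part of misassigned HSPA6 reads in the HSPA7 counts was not tested.

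Of the heat shock and co-chaperone list, 28 genes of which 26 have a row with a single identifier, 6 were silent in H-929 DMSO and HSPA7 was the member that met the rule. Of 61 measured muscle and cytoskeletal genes, 11 were silent and 1, MYH7, met it. None of the silent genes of 7 other lists met it. These were 17 cytokine and chemokine genes, 5 metallothioneins, 15 keratin and junction genes, 12 cancer-testis antigens, 46 developmental transcription factors, 12 neuronal genes and 4 NRF2 targets. Of all silent rows only 0.391% met the rule, so its absence from lists of this size is read as no result. The lists of AP-1 genes and of the ATF4 and CHOP stress response had 0 silent genes in H-929, so they could supply no member.

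Among genes of the nervous system and cell surface, TMEM35A encodes a chaperone for the assembly of nicotinic acetylcholine receptors, GPR61 an orphan G protein-coupled receptor and TAFA3 a secreted chemokine-like protein. TAFA3 had 53, 16 and 22 reads in the H-929 carfilzomib libraries. ATP2B3, a calcium pump of the plasma membrane, had 10, 24 and 22, and SLC38A8, an amino acid transporter, had 28, 10 and 13. Replicate 1 was the highest library for TAFA3 and SLC38A8 and the lowest for GPR61 and ATP2B3, so no single library carried the gains of all of them.

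LAMA1 and NID1 encode laminin alpha 1 and nidogen 1, components of basement membranes, and CD248 encodes endosialin, a surface protein of stromal cells. LAMA1 had 14, 18 and 12 reads, NID1 16, 14 and 12, and CD248 13, 10 and 20. In the same libraries the summed fibroblast, epithelial and monocyte markers rose, the plasma cell markers fell and the T cell markers overlapped between treatments, as given above. Within the epithelial set, EPCAM had reads after DMSO only and KRT19 after carfilzomib only. A relation of these shifts to the gains of LAMA1, NID1 and CD248 was not tested. MYH7, the beta myosin heavy chain of heart and slow muscle, had 11, 14 and 10 reads, and MUSK, the receptor kinase of the neuromuscular junction, had 10 in each.

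IZUMO1, the sperm protein that binds the egg, had 14, 18 and 21 reads. KCNU1, a potassium channel of sperm, had 12, 10 and 18, and MRO, the maestro gene first described in the developing testis, had 12, 17 and 12. The list of cancer-testis antigens, to which none of these genes belongs, gained 0 of its 12 silent genes, where 0.391% of all silent rows met the rule.

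PADI2, an enzyme that converts arginine in proteins to citrulline, had 32, 20 and 39 reads. PGC, the precursor of a gastric pepsin, had 11, 11 and 13, and KLHL33, of the kelch-like family, had 11, 14 and 19. HBA2, an alpha globin gene, had 33, 33 and 13, and its near-identical copy HBA1 went from 0, 0 and 2 reads to 20, 46 and 29. The HBA2 transcript is 97.95% identical to that of HBA1, so reads of the pair can be exchanged. CUBNP1, a pseudogene of the cubilin gene, has a copy at 95.3% identity, CUBNP3, which had 1 read in all 6 H-929 libraries. CUBN itself was present before treatment, at 7.80 ± 1.62 CPM after DMSO and 11.3 ± 2.21 after carfilzomib (SD, n = 3). UBTFL6, a pseudogene, had 11, 13 and 13 reads and is 98.5% identical to UBTFL3, which had none in any library. Another copy, UBTFL5, at 98.6% identity, has no row in the matrix, so reads from it could not be looked for.

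Of the noncoding RNAs, LINC02610 had 26, 24 and 27 reads, LINC01381 29, 14 and 24, LINC01754 18, 17 and 21, and ITGB1-DT 19, 24 and 11. ACTN1-AS1 had 20, 14 and 11, LINC02317 10, 15 and 13, and LINC02574 10, 14 and 11. The pseudogene GOLGA2P8 had 10, 24 and 15. ITGB1-DT starts divergently from ITGB1 and overlaps it on the opposite strand, and ITGB1 fell in H-929, from 144 ± 3.88 to 72.7 ± 5.49 CPM (mean ± SD, n = 3), with a log2 fold change of -0.77 (edgeR adjusted p 3.45e-06). CUBNP1 overlaps LINC02632 on the opposite strand, KCNU1 overlaps TPT1P8, and MYH7 overlaps MIR208B. Whether strand was used in counting is not given in the sources used here, so reads of overlapping genes may be exchanged.

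RN7SL472P (chromosome 14, 102077180 to 102077472, minus strand) is a pseudogene of the 7SL RNA of the signal recognition particle and lies 3265 bp downstream of HSP90AA1, on the same strand. It had 31, 29 and 28 reads after carfilzomib. HSP90AA1, which encodes the inducible HSP90 chaperone, rose in H-929 from 2406 ± 76.6 to 5036 ± 170 CPM (mean ± SD, n = 3), with a log2 fold change of 1.29 (edgeR adjusted p 2.79e-09). In H-1299, HSP90AA1 rose by 1.16 (edgeR adjusted p 3.3e-09). There RN7SL472P had 57 reads after DMSO and 47 after carfilzomib, a count ratio of 1.48 per TMM-scaled total (exact 95% interval 0.986 to 2.22). In CAPAN-2, HSP90AA1 rose by 0.90 (edgeR adjusted p 1.56e-07) and RN7SL472P went from 0, 3 and 11 to 18, 6 and 8 reads, a count ratio of 2.66 (1.38 to 5.39) whose counts overlapped between the groups. In RPMI, HSP90AA1 rose by 2.66 and RN7SL472P went from 0 in each library to 6, 2 and 5 reads.

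The nearest upstream gene on the same strand was examined for all 29 genes. It lay within 10000 bp for 7, or 24.1%, against 15.6% of 3976 genes silent in all 6 H-929 libraries. This neighbour had enough reads to be tested in H-929 for 20 of the 29 and for 1533 of the silent genes. It was called higher for 7 of the 20, or 35%, and for 389 of the 1533, or 25.4%, where 26.4% of all genes tested were called higher. A neighbour that was within 10000 bp and called higher was found for RN7SL472P, IZUMO1 and LINC02610. IZUMO1 lies 1101 bp downstream of FUT1, which rose from 3.76 ± 1.06 to 9.20 ± 3.45 CPM, and LINC02610 lies 6589 bp downstream of HES6, which rose from 3.13 ± 1.04 to 20.4 ± 4.48 CPM (SD, n = 3). Their log2 fold changes were 1.51 (edgeR adjusted p 0.00142) and 2.93 (edgeR adjusted p 6.44e-07). By contrast, LINC02574 lies 3338 bp downstream of IFI6, which was not called, at -0.40 (edgeR adjusted p 0.220). Reads that run past the end of a neighbour were not looked for, since only gene counts were used.

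H-929 had more rows that met the rule than any of the other 7 lines. The same rule applied to each other line found 0 rows in RKO, DLD-1 and H-23, 1 in H-1299 (0.0125% of its silent rows), 1 in PANC-1 (0.013%), 2 in CAPAN-2 (0.026%) and 10 in RPMI (0.119%). The mirrored rule, at least 10 reads in each DMSO library and 0 in each carfilzomib library, found 0 rows in H-929, 1 in H-1299, 2 in RPMI and 0 elsewhere. MRO in PANC-1 was the 1 gene of the 29 that met the rule outside H-929. None of the 10 rows of RPMI, the other myeloma line, is among the 29.

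Silent rows as a whole also filled in H-929. After carfilzomib, rows at 0 in every DMSO library took 850 ± 41.8 reads per M library counts (SD, n = 3), while rows at 0 in every carfilzomib library took 36.4 ± 1.41 reads per M counts after DMSO. In RPMI the same pair was 126 ± 13.8 and 39.5 ± 1.40. In the other 6 lines the carfilzomib value lay between 20.7 and 55.3 and the DMSO value between 17.9 and 50.03. With every library thinned to 9.12 M counts, the rule found 47 rows in H-929, 9 in RPMI, 3 in CAPAN-2, 1 in PANC-1 and 0 in the other 4 lines.

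**Figure D2:**
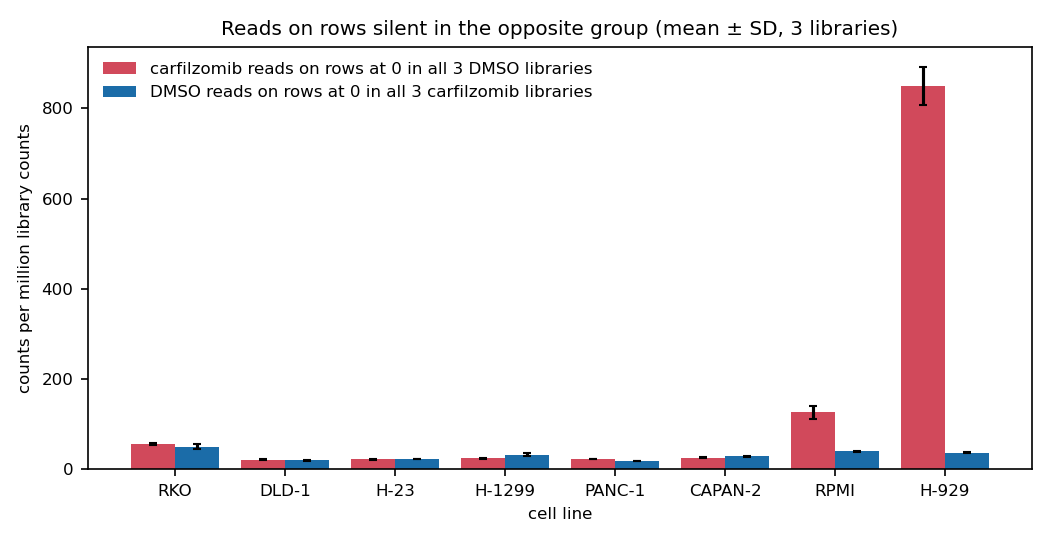
Reads per M counts on rows at 0 in all 3 libraries of the opposite treatment, as mean and SD of 3 libraries, for carfilzomib (red) and DMSO (blue) in 8 lines. H-929 after carfilzomib reaches 850, RPMI 126, and all other bars stay at or below 55.3.

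The 29 genes were not silent everywhere. A gene is called silent here at 0 reads in each DMSO library of a line, expressed at 10 or more in each, and trace otherwise. After DMSO, 13 of the 29 were expressed in H-23, 8 in PANC-1, 7 in DLD-1, 5 in H-1299, 5 in CAPAN-2, 3 in RKO and 2 in RPMI. Of all rows with a single identifier, 56.8% were expressed in H-23, 52.9% in PANC-1, 52.4% in DLD-1, 53.0% in H-1299, 53.4% in CAPAN-2, 45.2% in RKO and 46.2% in RPMI. The number of silent genes was 11 in RKO, 10 in RPMI, 8 in DLD-1, 7 in CAPAN-2, 6 in H-1299, 6 in PANC-1 and 4 in H-23. Of all rows with a single identifier, 34.4% were silent in RKO, 28.8% in RPMI, 25.96% in DLD-1, 26.4% in CAPAN-2, 27.5% in H-1299, 26.5% in PANC-1 and 20.9% in H-23. Over the 7 lines, 15 genes were expressed in the DMSO libraries of at least 1 line, 5 of them in at least 4 lines, and 14 in none. None was silent after DMSO in all 7 lines, and none was at 0 in all 42 libraries of the other lines.

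For 9 of the 29, an untreated line had a higher level than carfilzomib gave in H-929. NID1 was at 486 ± 8.79 CPM after DMSO in PANC-1 (SD, n = 3), against 1.40 ± 0.163 in H-929 after carfilzomib. PADI2 was at 476 ± 19.4 in PANC-1, against 3.03 ± 0.965. LAMA1 was at 150 ± 6.35 in H-23 and 101 ± 3.61 in RKO, against 1.47 ± 0.325. For the basement membrane genes and PADI2 the level gained in H-929 was thus under 1% of that in the highest line.

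A further group of these 9 genes had closer levels. ITGB1-DT was at 40.9 ± 2.51 CPM after DMSO in RKO (SD, n = 3) and at 1.80 ± 0.666 after carfilzomib in H-929. LINC01754 was at 14.02 ± 0.759 in RPMI and at 1.87 ± 0.232 in H-929, and IZUMO1 at 10.2 ± 1.80 in CAPAN-2 and 1.78 ± 0.397 in H-929. For TAFA3, whose highest DMSO mean was 3.61 CPM in RKO, GOLGA2P8 (2.59 in DLD-1) and LINC02610 (5.79 in PANC-1), the H-929 carfilzomib means were 3.00, 1.65 and 2.57. The other 20 genes had their highest DMSO level in any of the 7 lines below the H-929 carfilzomib level.

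**Figure D3:**
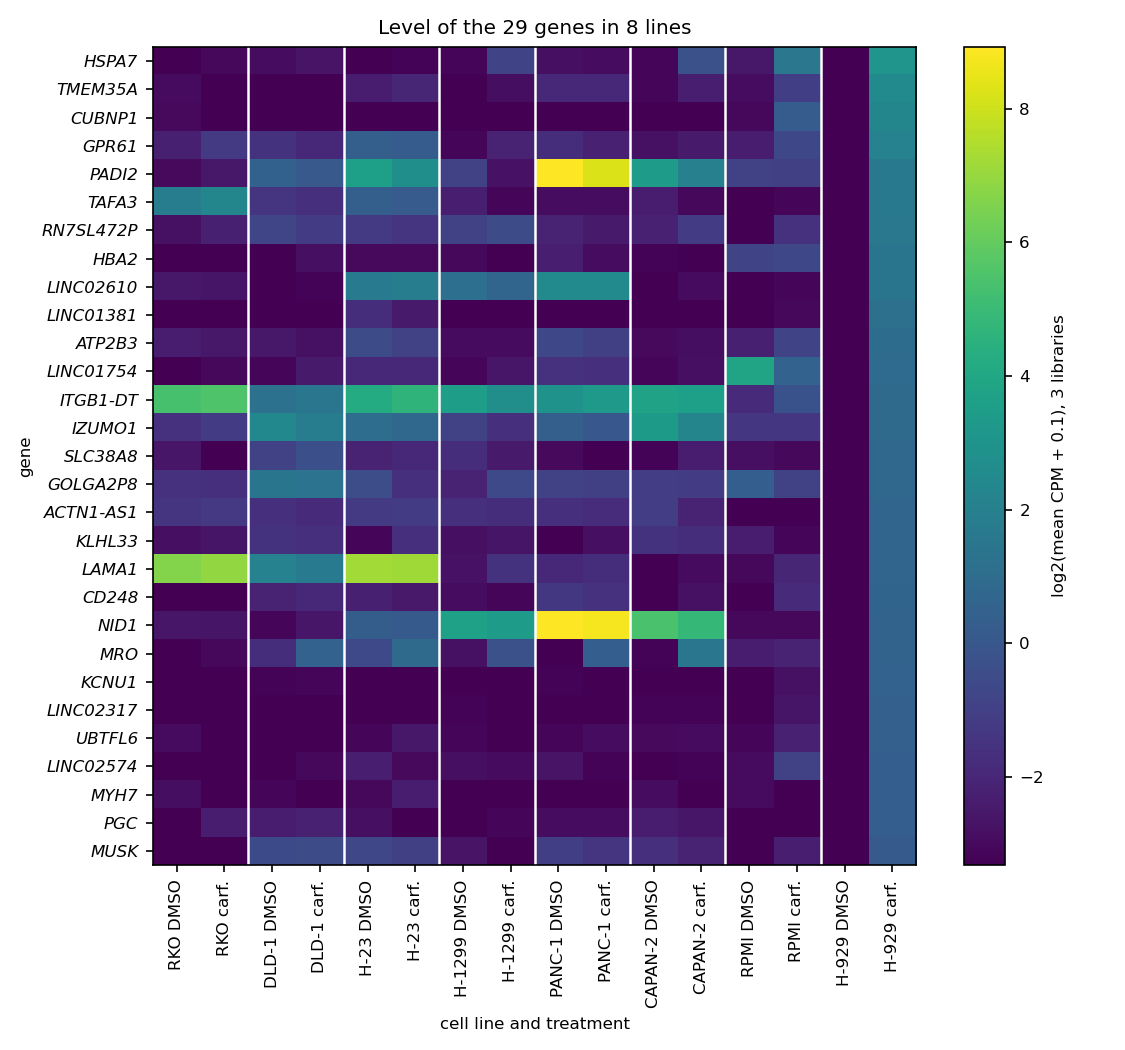
Mean level of each of the 29 genes in the 16 groups, as log2 of CPM plus 0.1 over 3 libraries, with lines along the bottom and genes in order of their H-929 carfilzomib level. PADI2 and NID1 in PANC-1 and LAMA1 in H-23 and RKO are the brightest cells, and every gene of the H-929 DMSO column has a CPM of 0, the lowest colour of the scale.

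Of the 29 genes, 18 had enough reads to be tested for carfilzomib against DMSO in at least 1 other line, giving 56 pairs of a gene and a line, and 11 were tested in none. With edgeR's quasi-likelihood test on all genes of a line at an adjusted p under 0.05, 14 pairs were called higher and 14 lower. In RKO 2 of 3 genes tested were higher and 0 lower, where 3.62% and 5.28% of all genes were called higher and lower. In DLD-1, 1 of 9 was higher and 1 lower (background 10.9% and 12.1%), and in H-23, 2 of 14 were higher and 2 lower (17.7% and 16.2%). In H-1299, 3 of 9 were higher and 3 lower (29.8% and 31.3%), and in PANC-1, 2 of 9 and 2 of 9 (20.5% and 18.2%). In CAPAN-2, 2 of 8 were higher and 4 lower (25.7% and 26.7%), and in RPMI, 2 of 4 and 2 of 4 (31.3% and 32.2%). These counts are small, and many rest on the filter on low counts, which lets a gene pass where 3 libraries reach its minimum. Of the 14 pairs called higher, 9 reached the minimum in the 3 carfilzomib libraries and in no DMSO library: MRO in DLD-1, H-1299, PANC-1 and CAPAN-2, HSPA7 in H-1299, CAPAN-2 and RPMI, CUBNP1 in RPMI and GOLGA2P8 in H-1299. Of the 14 called lower, 3 reached it in the DMSO libraries alone, namely PADI2 in H-1299, GOLGA2P8 in RPMI and ACTN1-AS1 in CAPAN-2, and GOLGA2P8 in H-23 reached it in 3 DMSO and 1 carfilzomib libraries. A gene kept through the group where it is high tends to differ, so the shares above are read as no result about the 29, and the adjusted p of these 13 pairs is not used. For them the reads are given, with the adjusted p of the fit with no filter, in which every gene with a read in the line was tested. The other 15 called pairs, 5 higher and 10 lower, reached the minimum in all 6 libraries.

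**Figure D4:**
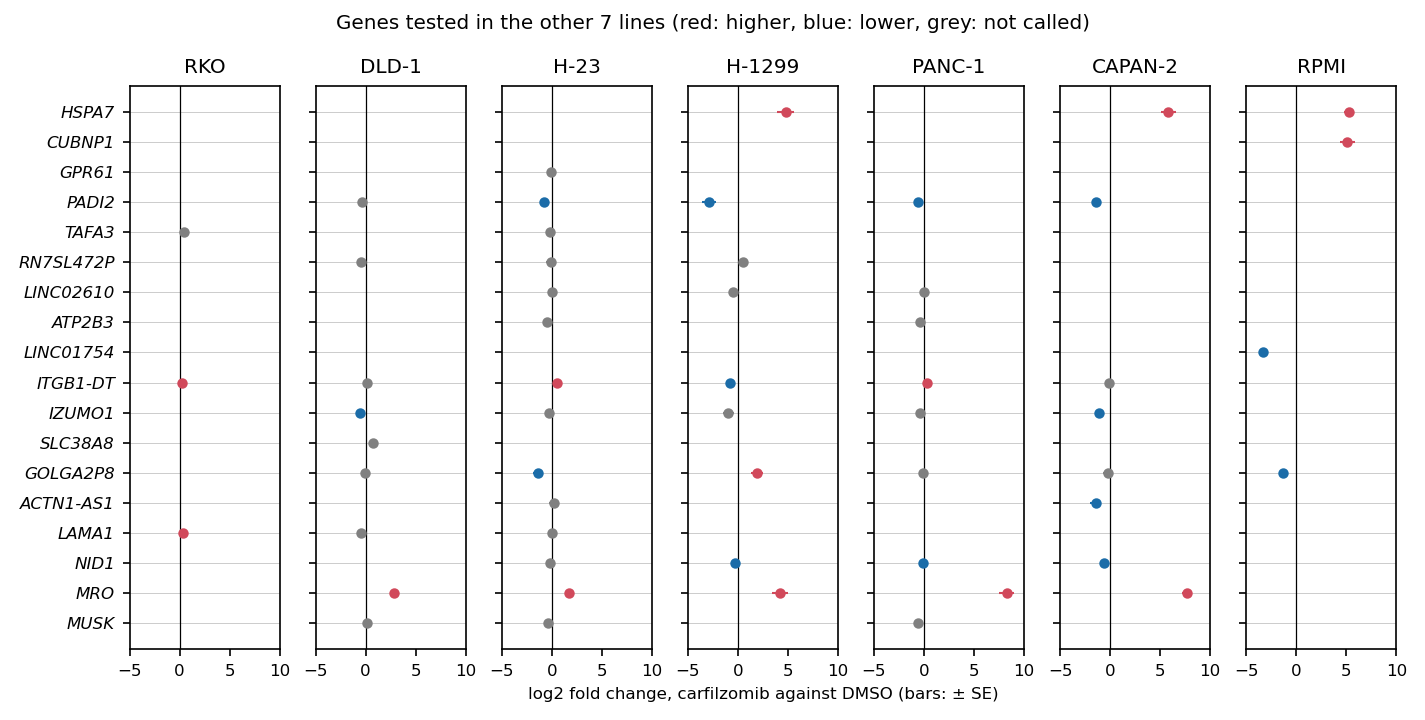
Fitted log2 fold change of carfilzomib against DMSO for the 18 genes tested in at least 1 of the other 7 lines, 1 panel per line, with standard errors as bars and calls in red (higher), blue (lower) or grey (not called). MRO is red in 5 panels and PADI2 blue in 4, and 13 of the 28 coloured points passed the filter wholly or mainly through 1 group, as the text lists.

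MRO (ENSG00000134042, chromosome 18, 50795120 to 50825402, minus strand) had enough reads to be tested in 5 of the other 7 lines. In H-23, the line in which it passed the filter through both groups, it went from 27, 15 and 35 to 31, 75 and 82 reads. Its level rose from 0.557 ± 0.0533 to 1.77 ± 0.328 CPM (mean ± SD, n = 3), with a log2 fold change of 1.70 ± 0.243 (SE; edgeR adjusted p 9.54e-05).

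The other 4 lines passed it through carfilzomib libraries alone. In CAPAN-2 it had 0, 0 and 1 reads after DMSO and 106, 82 and 63 after carfilzomib. The count ratio there was 292 per TMM-scaled total (exact 95% interval 51.9 to 11560, edgeR adjusted p 4.69e-23 with no filter). In PANC-1 it had 0 in each DMSO library and 27, 44 and 48 after carfilzomib, at least 36.4-fold higher (edgeR adjusted p 1.66e-10 with no filter). In DLD-1, MRO went from 6, 9 and 6 reads to 37, 45 and 37, a count ratio of 7.10 (4.44 to 11.9; edgeR adjusted p 1.06e-05 with no filter). In H-1299 it went from 0, 3 and 2 to 12, 38 and 10 reads, a count ratio of 21.6 (8.75 to 68.8; edgeR adjusted p 9.44e-06 with no filter). Reads of treated and control libraries did not overlap in these 4 lines. MRO was not tested in RKO, where 1 library had a read, or in RPMI, where it had 4, 0 and 1 reads after DMSO and 1, 6 and 0 after carfilzomib.

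Because MRO was the 1 gene of the 29 that met the rule in a second line, its promoters are shown, from RefSeq on GRCh38.p14, 250 bases before to 50 after each annotated start, on the minus strand. Capitals mark the AP-1 motif TGANTCA, which binds dimers of JUN and FOS proteins. In the first, at chr18:50819967-50820266, the motif begins 81 bases before the start, and in the second, at chr18:50825331-50825630, 6 bases before it.
MRO start 1: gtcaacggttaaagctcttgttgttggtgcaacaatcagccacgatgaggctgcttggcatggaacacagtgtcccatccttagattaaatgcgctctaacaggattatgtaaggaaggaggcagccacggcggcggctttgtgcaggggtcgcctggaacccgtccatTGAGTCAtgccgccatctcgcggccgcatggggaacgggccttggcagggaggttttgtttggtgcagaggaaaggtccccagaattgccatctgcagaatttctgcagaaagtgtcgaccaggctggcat
MRO start 2: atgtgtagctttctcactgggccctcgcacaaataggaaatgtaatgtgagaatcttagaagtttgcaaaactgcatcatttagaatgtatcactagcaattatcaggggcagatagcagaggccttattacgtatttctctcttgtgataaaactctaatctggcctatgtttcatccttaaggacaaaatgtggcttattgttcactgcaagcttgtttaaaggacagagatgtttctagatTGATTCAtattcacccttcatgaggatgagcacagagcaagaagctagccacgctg
The motif was in the promoters of 1 of the 15 genes with an entry, MRO, and in 7.71% of all 35116 promoters of that table. A match shows only that these letters are present.

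Other motifs were counted on both strands of the same 18 promoters of 15 genes. The core of the heat shock element, GAANNTTC or TTCNNGAA, was in those of IZUMO1 and NID1 and in 13.5% of all promoters. The longer element, which contains that core and extends GAANNTTC by NNGAA or TTCNNGAA by NNTTC, was in none of them and in 0.490% of all. The CRE motif TGACGTCA was in IZUMO1 (1.85% of all), the ATF4 and CEBP motif TGATGCAA in none (0.866%), the antioxidant motif TGACNNNGC in PADI2 (13.3%) and the TATA box TATAAA in IZUMO1 and PGC (11.5%). HSPA7 was not among the genes with an entry.

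HSPA7 had reads in 3 other lines after carfilzomib that passed the filter, in each of them through the carfilzomib libraries alone. In CAPAN-2 it went from 0, 1 and 0 to 29, 23 and 16 reads, a count ratio of 79.0 (exact 95% interval 13.7 to 3165; edgeR adjusted p 1.76e-09 with no filter). In RPMI it went from 1, 3 and 1 to 41, 38 and 83 reads, a count ratio of 41.03 (17.2 to 128; edgeR adjusted p 2.89e-22 with no filter). In H-1299 it went from 2, 0 and 0 to 14, 14 and 8 reads, a count ratio of 32.4 (8.33 to 277; edgeR adjusted p 4.65e-05 with no filter). HSPA6 rose by 6.03 on the log2 scale in CAPAN-2, by 7.75 in H-1299 and by 8.02 in RPMI, beside 7.84 in H-929. HSPA6 also rose in DLD-1, H-23 and PANC-1, by 2.18 to 2.50, and there HSPA7 had at most 3 reads per library and was not tested.

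**Figure D5:**
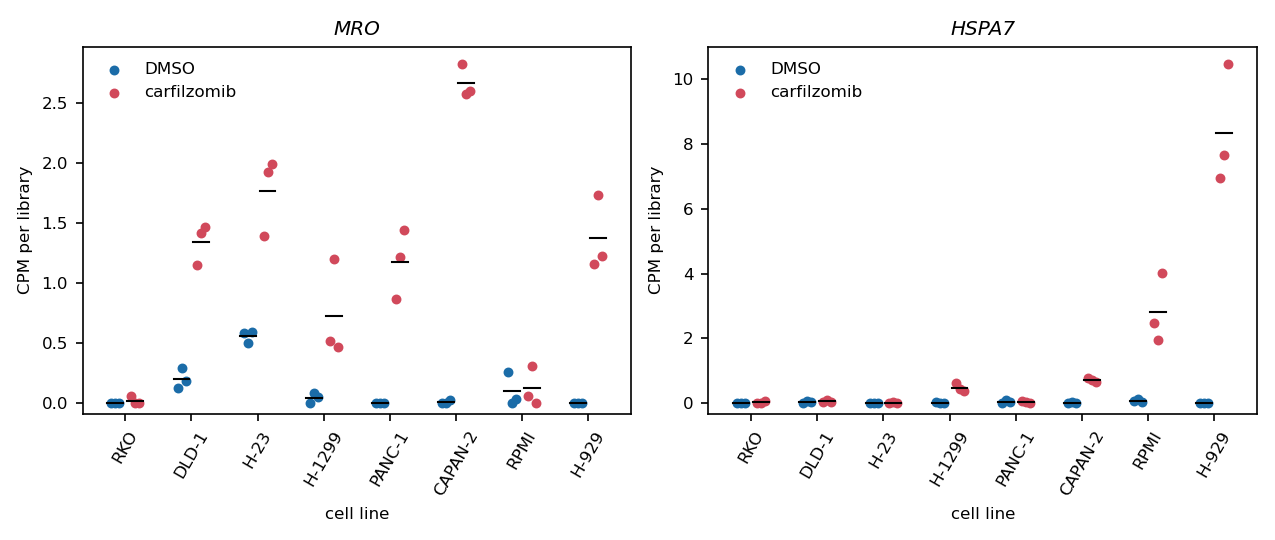
CPM of MRO (left) and HSPA7 (right) in each library of 8 lines, DMSO in blue and carfilzomib in red, with the group mean as a bar. MRO after carfilzomib lies above all DMSO libraries of the same line in 6 lines including H-929, and HSPA7 does so in H-1299, CAPAN-2, RPMI and H-929.

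RPMI, the other myeloma line, had low counts of many of the 29 genes. CUBNP1 went there from 0, 0 and 2 to 10, 28 and 25 reads, a count ratio of 39.9 (exact 95% interval 10.6 to 337; edgeR adjusted p 1.33e-09 with no filter), and had at most 1 read in any library of the other 6 lines outside H-929. With no filter on low counts, 8 of the 27 genes that had a read in RPMI were called higher and 2 lower, where 19.7% and 21.6% of all genes with a read were called. The 6 genes added were TMEM35A, GPR61, CD248, ITGB1-DT, LINC02574 and RN7SL472P. LINC02574 went from 0, 2 and 0 to 5, 7 and 12 reads (edgeR adjusted p 0.00443), and ITGB1-DT from 5, 4 and 1 to 8, 14 and 21 (edgeR adjusted p 0.00322). CD248 went from 0 in each library to 3, 2 and 5 (edgeR adjusted p 0.0284). TMEM35A went from 0, 1 and 2 to 6, 7 and 9 reads and GPR61 from 2, 3 and 1 to 4, 7 and 20, with edgeR adjusted p of 0.0144 and 0.00841. The counts of RN7SL472P are given above, and its adjusted p in edgeR was 0.0108. Such low counts did not pass the filter of the main test.

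LINC01754 went the opposite way in RPMI. It had 228, 345 and 424 reads after DMSO and 29, 20 and 27 after carfilzomib, with no overlap. Its level fell from 14.02 ± 0.759 to 1.36 ± 0.361 CPM (mean ± SD, n = 3), with a log2 fold change of -3.31 ± 0.196 (SE; edgeR adjusted p 5.85e-09). After carfilzomib its level was 1.36 CPM in RPMI and 1.87 ± 0.232 CPM in H-929, from DMSO levels of 14.02 and 0, and these levels of different lines were not tested against each other.

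PADI2 fell in 3 of the 4 lines where it passed the filter through both groups. In PANC-1 it went from 13128, 14186 and 16966 reads to 9908, 11203 and 9758, or from 476 ± 19.4 to 306 ± 12.4 CPM (mean ± SD, n = 3), with a log2 fold change of -0.62 ± 0.0372 (SE; edgeR adjusted p 8.02e-08). In CAPAN-2 it fell from 10.6 ± 0.498 to 3.98 ± 0.572 CPM, with a log2 fold change of -1.38 ± 0.135 (SE; edgeR adjusted p 8.6e-07). It fell in H-23 from 12.02 ± 1.21 to 6.75 ± 0.466 CPM, by 0.79 on the log2 scale (edgeR adjusted p 5.27e-05). In H-1299 it went from 21, 17 and 18 to 3, 1 and 0 reads, a count ratio of 0.128 (exact 95% interval 0.0338 to 0.348; edgeR adjusted p 0.00196 with no filter). In DLD-1 the log2 fold change was -0.37 and was not called.

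The basement membrane genes moved less. NID1 fell in CAPAN-2 from 42.7 ± 2.26 to 28.1 ± 0.558 CPM (mean ± SD, n = 3), with a log2 fold change of -0.57 ± 0.0625 (SE; edgeR adjusted p 2.4e-06). In PANC-1 it fell from 486 ± 8.79 to 434 ± 23.5 CPM, by 0.15 on the log2 scale (edgeR adjusted p 0.00726). The fall in H-1299, -0.28 (edgeR adjusted p 0.0386), was lost without DMSO replicate 1 or 3 or carfilzomib replicate 1 or 2, with values from -0.31 to -0.21, and became 0.014 with libraries thinned to 9.12 M. LAMA1 rose in RKO from 101 ± 3.61 to 122 ± 3.09 CPM, with a log2 fold change of 0.30 ± 0.0445 (SE; edgeR adjusted p 0.00102), and was not called in DLD-1 or H-23.

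ITGB1-DT was called in both directions. It rose in H-23 from 18.3 ± 2.40 to 25.3 ± 0.562 CPM (mean ± SD, n = 3), with a log2 fold change of 0.50 ± 0.0791 (SE; edgeR adjusted p 0.000236), and fell in H-1299 from 11.2 ± 0.581 to 6.48 ± 0.513, at -0.76 ± 0.110 (SE; edgeR adjusted p 5.32e-05). Its rise in RKO, 0.24 (edgeR adjusted p 0.0403), was lost in all 6 fits without 1 library, with values from 0.21 to 0.28. The rise in PANC-1, 0.34 (edgeR adjusted p 0.0147), was lost without DMSO replicate 2 or 3 or carfilzomib replicate 2, with values from 0.28 to 0.32. The response of ITGB1-DT differed between the 7 lines in a joint fit of their 42 libraries (edgeR adjusted p 2.32e-09), a test that called 63.6% of all 21470 genes and 12 of the 20 among the 29 that could be tested.

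IZUMO1 fell in CAPAN-2 from 10.2 ± 1.80 to 4.63 ± 0.106 CPM (mean ± SD, n = 3), with a log2 fold change of -1.11 ± 0.143 (SE; edgeR adjusted p 1.32e-05). Its neighbour FUT1, which rose in H-929, fell in CAPAN-2 by 0.80 (edgeR adjusted p 1.05e-07). In DLD-1 IZUMO1 fell by 0.58 on the log2 scale (edgeR adjusted p 0.0233), a call lost without DMSO replicate 1 or 2 or carfilzomib replicate 2 or 3, with values from -0.55 to -0.50. FUT1 fell in DLD-1 as well, by 0.39 (edgeR adjusted p 0.00193). In PANC-1, FUT1 fell by 1.59 (edgeR adjusted p 0.00016), while IZUMO1 was not called, from 37, 38 and 34 to 25, 34 and 33 reads. In H-23, FUT1 fell by 0.65 (edgeR adjusted p 0.00385) and IZUMO1 was not called, at -0.28. In RPMI, FUT1 rose by 0.53 (edgeR adjusted p 0.00451), while IZUMO1 had 21 reads after DMSO and 17 after carfilzomib.

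GOLGA2P8 and ACTN1-AS1 had pairs that passed the filter mainly through 1 group. GOLGA2P8 had 13, 4 and 3 reads after DMSO and 8, 13 and 19 after carfilzomib in H-1299, a count ratio of 3.595 (exact 95% interval 2.05 to 6.49; edgeR adjusted p 0.00823 with no filter), and the groups overlapped. In RPMI it had 21, 31 and 29 reads and then 6, 9 and 10, a count ratio of 0.391 (0.239 to 0.619; edgeR adjusted p 0.0123 with no filter), with no overlap. In H-23 it had 19, 26 and 39 reads and then 1, 14 and 10, a count ratio of 0.394 (0.241 to 0.622; edgeR adjusted p 0.0127 with no filter). In the filtered fit its call in H-1299 was lost without carfilzomib replicate 3, at 1.43, and that in H-23 without DMSO replicate 2 or 3 or carfilzomib replicate 1 or 3, with values from -1.41 to -1.05. ACTN1-AS1 had 11, 13 and 16 reads in CAPAN-2 and then 3, 5 and 4, a count ratio of 0.349 (0.166 to 0.678), and was not called with no filter (edgeR adjusted p 0.0623) or with the replicate number as a block, at -1.45.

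The 7 genes tested and called in no other line were ATP2B3, GPR61, LINC02610, MUSK, RN7SL472P, SLC38A8 and TAFA3, with log2 fold changes from -0.56 for MUSK to 0.70 for SLC38A8. LINC02610, for example, had 168, 166 and 203 reads after DMSO in PANC-1 and 187, 197 and 196 after carfilzomib, a count ratio of 0.992 (exact 95% interval 0.881 to 1.12). HES6, its upstream neighbour, was not called in PANC-1 at -0.05 (edgeR adjusted p 0.625). HES6 fell in H-1299 by 1.26 (edgeR adjusted p 4.35e-06) and in H-23 by 0.39 (edgeR adjusted p 0.00438), where LINC02610 was not called, at -0.51 and 0.05. Among the 11 genes with too few reads to be tested in any of the 7 lines, TMEM35A, KCNU1, LINC02317, MYH7, PGC and UBTFL6 stayed below 10 reads in each of the 42 libraries. TMEM35A was called in RPMI when no filter was set, as given above. For the other 5, no change was called with or without the filter, and a change was not detectable at this depth.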

How the data were processed

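The authors deposited unnormalized read counts by gene for 48 libraries in 16 groups of 3. The submitters' processing notes name the build hg38 and the tools bcl2fastq 2.19, FastQC, Trimmomatic, HISAT2 and DESeq2, without their settings. The counting program, its annotation and its use of strand are not given in the sources used here. Totals ran from 9.116 to 64.37 M counts per library. No 2 replicates agreed within counting noise, the lowest chi-square per degree being 3.47.

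The 29 genes were found by the stated rule among the deposited counts. The 4803 rows that share an identifier were left out of the rule and kept in the fits and totals. Gene types, positions and neighbours came from GENCODE release 29 (GRCh38), which matched all 29. Near-identical copies were sought with blastn 2.17.0 (at least 95% identity over at least 80% of the transcript), and promoters came from RefSeq on GRCh38.p14.

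Each line's 6 libraries were tested by quasi-likelihood in edgeR 4.0.16 (R 4.3.3), using TMM scaling and the filterByExpr filter, with Benjamini-Hochberg adjustment over all genes tested and calls at an adjusted p under 0.05. The script was checked on simulated counts. CPM use TMM factors over all 48 libraries, except the marker sums, which use plain library totals. Folds against groups at 0 use a floor of 3 counts over the group. Count ratios and these folds are per TMM-scaled library total. The ratios have exact 95% intervals, which cover counting error only. The alternatives were other scaling, filters, tools, samples in the fit, a replicate block, a null fold change of 1.5, thinning and leaving out each library.

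The 29 genes, the gene lists and the rules were chosen with earlier results of these data known. The naming rule took the 12 genes with the highest H-929 level, per line up to 3 called higher and 2 called lower with at least 10 mean counts, genes called higher in the most lines, the top DMSO gene of each line, list members and rows at the threshold. The remaining genes of the 29 are named because the set is described in full. The copy limits, the distance of 10000 bp, the genes set beside the 29, the sequences shown, the joint fit of 42 libraries, the list of calls with no filter and the check of which group carried a gene through the filter were chosen after their values were seen.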

Additional observations from a re-analysis of the deposited data

Results flagged for a closer look

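A joint edgeR fit of the 42 libraries of the other 7 lines tested whether the response to carfilzomib differed between lines. It could test 20 of the 29 genes and called 12, or 12 of 20, where 63.6% of all genes tested were called, so a difference between lines was common in these data.

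A gene enters this fit when 3 of the 42 libraries reach the minimum, so a gene kept through few groups tends to differ between lines. HSPA7 reached it in the carfilzomib libraries of 3 lines and in no DMSO group, and RN7SL472P in 2 groups, while KLHL33 reached it in no whole group. LINC01754 reached it in RPMI alone. MRO reached it in the carfilzomib libraries of DLD-1, H-23, H-1299, PANC-1 and CAPAN-2, and in the DMSO libraries of H-23 alone. The adjusted p of HSPA7, MRO, RN7SL472P, KLHL33 and LINC01754 in this fit is therefore printed only as a record of what was flagged. It is read as no result, and no difference between lines is drawn from it for these genes. MRO (adjusted p in edgeR 1.35e-05) ran from a count ratio of 3.23 (exact 95% interval 2.47 to 4.27) in H-23 to 292 in CAPAN-2, and was at least 36.4-fold higher in PANC-1, where no DMSO library had a read. HSPA7 (edgeR adjusted p 0.00554) had 41, 38 and 83 reads after carfilzomib in RPMI and at most 3 per library in DLD-1, H-23 and PANC-1. ITGB1-DT (edgeR adjusted p 2.32e-09) and GOLGA2P8 (edgeR adjusted p 0.00338) had fitted changes of opposite sign in different lines. The rise of GOLGA2P8 in H-1299 and its falls in RPMI and H-23 passed the filter of the single lines mainly through a single group. Their reads and the fit with no filter are given above. In DLD-1, PANC-1 and CAPAN-2 GOLGA2P8 was not called, at -0.08, -0.11 and -0.22. LINC01754 (edgeR adjusted p 8.98e-07) fell by 3.31 on the log2 scale in RPMI, while its count ratio in H-23 was 1.18 (exact 95% interval 0.578 to 2.41).

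PADI2 (edgeR adjusted p 7.54e-06) had log2 fold changes from -1.38 in CAPAN-2 to -0.37 in DLD-1 where both groups passed the filter. In H-1299 it was at -2.89 and passed through the DMSO libraries alone. NID1 (edgeR adjusted p 0.00291) ran from -0.57 in CAPAN-2 to -0.15 in PANC-1, and LAMA1 (edgeR adjusted p 0.00294) from -0.47 in DLD-1 to 0.30 in RKO.

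Of the other 4, GPR61, RN7SL472P and MUSK were called in no single line with the filter on low counts, and KLHL33 was tested in none. Count ratios of these 4 genes per TMM-scaled total are given with exact 95% intervals. The adjusted p of RN7SL472P and KLHL33 is again a record only and is read as no result, for the reason given above. GPR61 (edgeR adjusted p 0.0365) was at 0.969 (0.755 to 1.24) in H-23 and 6.54 (2.69 to 19.2) in RPMI. RN7SL472P (edgeR adjusted p 0.0305) was at 0.692 (0.435 to 1.08) in DLD-1, and in RPMI it had no read after DMSO and was at least 5.49-fold higher after carfilzomib. KLHL33 (edgeR adjusted p 0.0302) was at 15.2 (3.76 to 133) in H-23, with 2 reads in the DMSO libraries, and at 0.830 (0.443 to 1.53) in CAPAN-2. MUSK (edgeR adjusted p 0.0186) was at 0.688 (0.455 to 1.03) in H-23, and in RPMI it had no read after DMSO and was at least 2.53-fold higher.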

How the results depend on the processing

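The number of genes found by the rule moved from 29 to 106 with a minimum of 5 reads, 6 with a minimum of 20, 68 with up to 1 read in each DMSO library and 47 with thinned libraries, and lay between 44 and 57 without 1 H-929 library. With a minimum of 5 reads 12 genes were expressed in DLD-1 DMSO, and with a minimum of 20 there were 8 in H-23, 3 in H-1299 and 5 in PANC-1. Thinning left 6 expressed in H-23, 3 in H-1299, 4 in PANC-1 and 1 in RPMI, and raised the silent genes to 13 in CAPAN-2 and 16 in RPMI.

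Of the genes called higher, those in RKO went from 2 to 0 in one fit of all libraries and to 0 at a null fold change of 1.5. In the fit of all libraries there were 5 in H-1299, 1 in PANC-1 and 10 in RPMI, and with no filter 8 in RPMI. With a mean of at least 50 counts there were 0 in DLD-1, H-1299, CAPAN-2 and RPMI and 1 in H-23 and PANC-1, since fewer genes were tested. The DESeq2 Wald test left 0 in DLD-1, where DESeq2 gave MRO no adjusted p. A null fold change of 1.5 left 1 in H-23 and PANC-1, and thinning 0 in H-1299 and 1 in CAPAN-2 and RPMI. Of the genes called lower, one fit of all libraries left 0 in DLD-1 and 1 in PANC-1. A null fold change of 1.5 left 0 in DLD-1, H-23 and PANC-1, 1 in H-1299 and RPMI, and 2 in CAPAN-2. With a mean of at least 50 counts there was 1 in H-23 and RPMI, with DESeq2 1 in H-23, and with thinning 1 in H-23 and RPMI. Except where stated, the cause of these shifts was not tested.

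Without 1 library, the genes called higher numbered 1 in RKO, 1 to 2 in PANC-1, 2 to 3 in H-1299 and CAPAN-2 and 2 to 4 in RPMI, with 1 in DLD-1 and 2 in H-23 throughout. Those called lower numbered 0 to 1 in DLD-1, 1 to 2 in H-23, 2 to 4 in H-1299, 3 to 4 in CAPAN-2, and 0 in RKO, 2 in PANC-1 and 2 in RPMI throughout. Of 28 called pairs of a gene and a line, 13 kept their call in every alternative that gave a value, and 1 value reversed, that of NID1 in H-1299 (0.014 with thinned libraries). Among the 13 were MRO in DLD-1, H-1299, PANC-1 and CAPAN-2, HSPA7 in H-1299, CAPAN-2 and RPMI, CUBNP1 in RPMI and PADI2 in H-1299. Those pairs passed the filter through 1 group alone, so their kept calls are read as no result. MRO in H-23, PADI2 and IZUMO1 in CAPAN-2 and LINC01754 in RPMI also kept theirs and passed through both groups.

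Libraries with the same replicate number deviated together little, with correlations from -0.063 to 0.041, so the main fits used no block. Whether such libraries share a culture or batch is not known. With the replicate block, 27 of the 28 calls held, and 2 genes in place of 1 were called lower in DLD-1. Every library correlated best with its own number in H-23 and PANC-1, and not in the other 5 lines. Depth limits all counts near 10 reads.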

Other observations

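Outside the 29 genes, 2 rows met the rule in 2 lines each. GCKR, the regulator of glucokinase, had 0 reads in each DMSO library of CAPAN-2 and RPMI, and 64, 55 and 30 reads after carfilzomib in CAPAN-2 and 12, 20 and 43 in RPMI. In H-929 it had 0, 0 and 1 reads after DMSO and 5, 3 and 17 after carfilzomib. AKR1B10, an aldo-keto reductase, had 0 reads in each DMSO library of H-1299 and RPMI, and 42, 73 and 35 reads after carfilzomib in H-1299 and 16, 10 and 21 in RPMI. In H-929 it had no reads after DMSO and 1, 3 and 0 after carfilzomib. The other rows were KRT6A in CAPAN-2 and STYK1, FGF12, SPRR2D, PNPLA1, PNMA8B, SPRR2A, LINC02273 and LINC00519 in RPMI. In the H-929 DMSO libraries KRT6A had no read and each of the other 8 had at least 1, up to 50, 51 and 57 for SPRR2A.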
